A study of Homo sapiens with 12 samples.

Results

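A set of 26 protein-coding genes was close to silent in vehicle-treated C4.2B cells and was read at appreciable levels after EZH2 inhibition with tazemetostat. The genes were chosen by their DMSO and tazemetostat values among the 19907 protein-coding names found once in the deposited tables, with a mean normalized count under 5 in the DMSO libraries and of 50 or more in the tazemetostat libraries. Of these names, 7066 were under 5 in DMSO, and 31 of them met both levels. Names that begin with HOX, CDH, PCDH, KCN, COL, KRT, WNT, SOX, SEMA or SCG were left out, which removed the protocadherins PCDHB5, PCDHB2, PCDHB13 and PCDH19 and the semaphorin SEMA6D. Since tazemetostat and DMSO values chose the 26 genes, the difference between those arms is given as a description, without a test.

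C4.2B is a human prostate cancer line that grew out of LNCaP cells under castration. RNA was sequenced from 4 arms of 3 libraries each. The DMSO arm received vehicle, the IPATA arm the AKT inhibitor ipatasertib (AKTi, 0.25 μM), the TAZ arm the EZH2 inhibitor tazemetostat (EZH2i, 1 μM) and the COMBO arm both agents. TAZ and COMBO cells were held in tazemetostat for 6 days beforehand, all arms were moved to 10% charcoal-stripped FBS on day 0, and RNA was taken 24 hours later. The study used the arms to ask what EZH2 and AKT inhibition do to transcription alone and together. The libraries of an arm came from plates of 1 line seeded in triplicate, so p-values measure the spread between plates.

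EZH2 is the catalytic subunit of Polycomb repressive complex 2 (PRC2), which places the repressive mark H3K27me3 on histone H3. In differentiated and cancer cells PRC2 keeps many lineage and developmental genes off, and when EZH2 is inhibited the mark is lost as nucleosomes are replaced over cell divisions. AKT is the kinase downstream of PI3K, and among many other targets it phosphorylates EZH2 and the FOXO transcription factors.

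Total counts per library ran from 14133755 to 22276417, so 1 read equalled about 1 normalized count and a DMSO mean under 5 stood for few reads. The 26 genes together had 7 members at 0 in the first DMSO library and 4 in each of the others. Luminal prostate markers were read at high levels in every arm, and cell identity itself was not tested. All 12 luminal markers were over 5 in DMSO, with list medians of 4840 (DMSO), 6011 (IPATA), 7360 (TAZ) and 8248 (COMBO). Only HOXB13 had a lower mean in COMBO (4732) than in DMSO (6925). Of the 6 basal markers, TP63 and KRT5 stayed at or near 0. KRT15 had 0 reads in DMSO and IPATA, 27 over the TAZ libraries (mean 8.12 normalized counts) and 3 in COMBO, and KRT14 had 0 reads in DMSO, 1 in IPATA, 10 in TAZ (mean 2.82) and 5 in COMBO. The list's summed level was 52.2 to 69.3 in DMSO, 110.8 to 128.7 in IPATA, 348.9 to 401.8 in TAZ and 280.9 to 387.2 in COMBO, mainly through ITGB4 and LAMB3, of which the latter is itself 1 of the 26. The 7 fibroblast markers summed to 104.4 to 153.1 in DMSO and 304.3 to 331.4 in TAZ, mainly COL1A1. The 5 endothelial markers summed to 35.6 to 47.8 in DMSO and 93.1 to 106.1 in TAZ, mainly VWF (means 42.1 and 96.5). The 10 neuroendocrine markers summed to 113.9 to 122.5 and 190.7 to 201.9, mainly ENO2 (means 79.9 and 146.6). The 6 leukocyte markers summed to at most 27.5 in any library. Their part in the results was not tested. In bulk RNA a change in how many cells express a gene cannot be told apart from a change in RNA per cell.

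The upstream sequences of 4 of the genes are shown because they differ both in base composition and in their response to added ipatasertib. They were picked after the values were seen. NTS and SEMG1, which ended lower in COMBO than in TAZ, have CpG-poor upstream regions, and SHC2 and CIB2, which ended higher, have CpG-rich ones. The 4 do not stand for the set. TSLP and TSPAN8 also ended higher, and their promoter entries hold only 2 and 1 CG in 300 bases. The sequences are the 250 bases before the RefSeq start site on the strand of the gene (GRCh38.p14), with every CG in capitals. NTS lies at chr12:85874045-85874294 on the plus strand with 2 CG, SEMG1 at chr20:45206783-45207032 on the plus strand with 1, SHC2 at chr19:461034-461283 on the minus strand with 29, and CIB2 at chr15:78131536-78131785 on the minus strand with 29.
NTS: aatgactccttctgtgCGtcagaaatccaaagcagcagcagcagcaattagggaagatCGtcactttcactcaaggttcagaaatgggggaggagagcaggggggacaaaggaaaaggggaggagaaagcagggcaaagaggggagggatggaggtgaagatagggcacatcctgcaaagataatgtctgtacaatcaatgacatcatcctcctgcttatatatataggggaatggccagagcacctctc
SEMG1: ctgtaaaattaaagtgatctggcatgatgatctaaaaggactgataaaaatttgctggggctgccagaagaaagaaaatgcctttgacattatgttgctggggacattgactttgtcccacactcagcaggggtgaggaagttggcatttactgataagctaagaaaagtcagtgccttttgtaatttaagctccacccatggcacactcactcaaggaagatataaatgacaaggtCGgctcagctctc
SHC2: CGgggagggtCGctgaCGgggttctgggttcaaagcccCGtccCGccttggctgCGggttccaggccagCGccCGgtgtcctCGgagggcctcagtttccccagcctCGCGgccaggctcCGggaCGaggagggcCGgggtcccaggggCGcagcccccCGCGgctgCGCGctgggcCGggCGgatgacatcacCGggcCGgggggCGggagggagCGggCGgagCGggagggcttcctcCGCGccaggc
CIB2: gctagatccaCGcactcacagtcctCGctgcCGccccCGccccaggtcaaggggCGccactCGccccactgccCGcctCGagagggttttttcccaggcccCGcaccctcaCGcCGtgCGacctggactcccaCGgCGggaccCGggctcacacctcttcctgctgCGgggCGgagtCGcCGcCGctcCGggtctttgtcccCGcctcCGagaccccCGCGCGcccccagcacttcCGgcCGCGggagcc

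A RefSeq promoter entry (250 bases before to 50 after the start) was matched for 19 of the 26 genes, or 73.1%. NR4A2, CALB2, OPRK1, EFNB3, TGM2, SCNN1G and ATP2A3 had none. With fewer than 80% matched, a comparison of promoter composition between the set and other genes is void, and the counts below describe the matched genes only. CG counts per 300 bases ran from 0 (ANXA1) to 42 (AHNAK2), against a median of 21 (quartiles 6 and 31) over 17363 promoters. Of the 19, 9 had fewer than 10 CG and 8 met the usual CpG-island composition (GC of at least 50% and an observed over expected ratio of at least 0.6). The letters TATAAA, searched on both strands, were found in 4 of the 19 (ATP12A, ANXA1, SEMG1 and TENM2) and in 10.1% of all promoters. Of the matched genes called higher in COMBO than in TAZ, 3 of 5 met that composition (SHC2, CIB2 and CLSTN2), and TSLP and TSPAN8 did not. It was met by 0 of 4 called lower and 5 of 10 without a call, too few for a comparison. For AOC1, TSPAN8 and TENM2 the RefSeq start lay 27890, 283899 and 211557 bases from the start in the count table, so another start may be the one in use.

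The genes switched on by tazemetostat covered a wide range of functions. The count table gave a transcription factor family for 1 of the 26, beside 406 of the 6706 silent genes with the same names left out. HOX and SOX names were among those left out, and the count is not read as a scarcity. By role the 26 genes comprised 3 secreted peptides and cytokines, 5 receptors and signaling adaptors, 7 adhesion and matrix proteins, 3 channels and pumps, 4 calcium-dependent proteins, 3 scaffolds and enzymes and the nuclear receptor NR4A2. Counted by symbol families among the 6706 silent genes with the same names left out, 26 genes (0.388%) were members. Adhesion and guidance families gave 3 of 120 (2.5%) and G protein-coupled receptors 2 of 652 (0.307%). Developmental transcription factor families gave 1 of 242 (0.413%), and none came from the 334 germline and cancer-testis genes, the 323 immune and antigen presentation genes or the 74 genes named ZNF. Symbol families left 12 members without a class, so these shares are a description. The members lay on 18 chromosomes, with at most 2 on any one and no 2 within 100 kb of each other. Their median transcript length was 4206 bases and their median genomic span 35523 bases, against 2690 and 17125 for the 6680 silent genes that were not members. Protein-coding genes with a DMSO mean of 50 or more had 5290 and 33525. The rule used counts not corrected for length, which favors long transcripts, so nothing is read from the difference to the silent genes.

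Close to the bounds, the rule separated genes with similar values. Just inside the TAZ bound were ATP2A3 (50.6), TSLP (54.7), TENM2 (55.7) and TGFBR2 (55.8), and just outside were CD177 (47.5), GSTA2 (47.3), NXNL2 (45.7) and OR51E2 (42.0). Just inside the DMSO bound were LAMB3 (4.73), TSLP (4.46), NR4A2 (4.43) and TGFBR2 (4.196), and just outside were DIO3 (5.004), VANGL2 (5.04), OBSL1 (5.13) and GAGE12J (5.15), the last of a family of near-identical copies whose reads are hard to assign. TAZ means of the 26 ran from 50.6 to 588, and only 8 reached 100. Pooled over libraries, the ratio of TAZ to DMSO normalized counts had a median of 26.6 and ran from 11.7 (TSLP) to 1771 (NTS, on 1 DMSO count, 95% counting interval 317.4 to 69970), with OPRK1, unread in DMSO, at its bound of at least 75.7-fold. All intervals are exact binomial and cover counting error only.

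**Figure D1:**
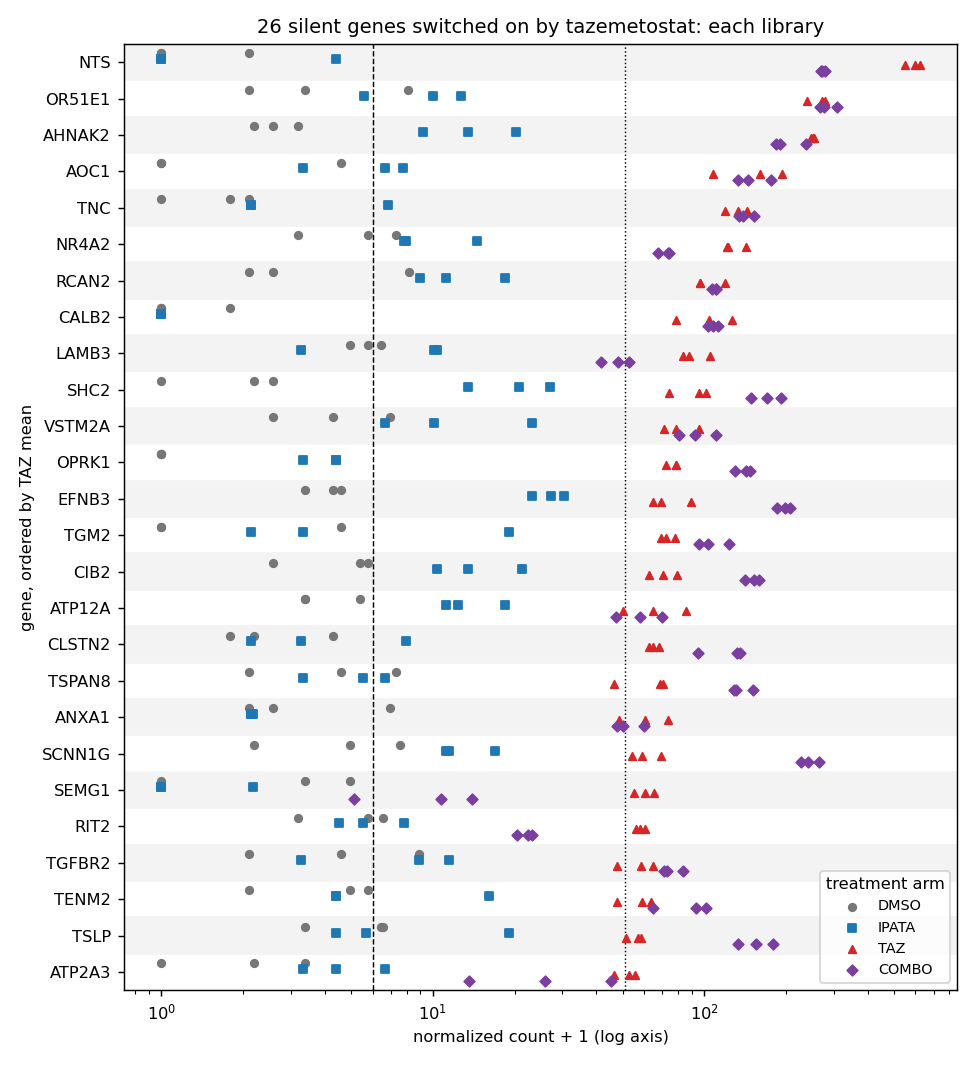
Normalized count plus 1 (log axis) of the 26 genes in each of the 12 libraries, ordered by TAZ mean, with symbols for the 4 arms; the dashed line marks 5 and the dotted line 50 normalized counts. DMSO and IPATA libraries lie to the left and TAZ and COMBO libraries to the right, with the COMBO libraries of SEMG1 (4.10 to 12.96), RIT2 (19.4 to 22.2) and ATP2A3 (12.6 to 44.3) in between.

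The plot of each library shows the arms without tazemetostat on one side and the arms with it on the other. The median of the 26 genes was 1.09 to 2.99 in the DMSO libraries, 5.69 to 6.997 in IPATA, 69.3 to 77.8 in TAZ and 116.6 to 119 in COMBO.

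The set was also higher with tazemetostat in cells whose AKT was inhibited. COMBO against IPATA is tazemetostat added to ipatasertib, and neither arm was used to choose the genes. All 26 genes were higher in COMBO by the edgeR quasi-likelihood test (adjusted p from 3.02e-22 for NTS to 0.000296 for SEMG1), where 32.1% of the 16646 genes tested were called higher and 32.1% lower. In all 26, every COMBO library was above every IPATA library, which was so for 33.7% of the genes tested. DESeq2 called the same count of 26 higher, with 21.8% of its genes called higher and 22.5% lower. All 26 had passed the low-count filter by their TAZ level. The rise was not particular to the set. Among genes just outside its bounds, CD177, GSTA2, NXNL2, OR51E2, DIO3, VANGL2 and OBSL1 were also called higher by edgeR (log2 2.57 to 8.23). GAGE12J was called lower (-1.76). Among all 7066 silent genes, 57 had a mean of 10 or more in IPATA (8 of them members) and 439 in COMBO (25 members). The median fitted log2 difference was 3.90, against 0.04 over the genes tested, and the 22 members with more than 3 IPATA counts ran from 2.07 (RIT2) to 5.67 (TNC). Leaving out 1 library moved 8 members by more than 1.5-fold, and all stayed higher. Without IPATA replicate A, TNC went to 6.77, CLSTN2 from 5.09 to 6.00, SEMG1 from 4.16 to 6.19, TENM2 from 3.54 to 4.56 and VSTM2A from 2.93 to 3.60. Without IPATA replicate C, NTS went from 7.76 to 11.14, TGM2 from 3.87 to 5.84 and TSLP from 4.14 to 5.21. As pooled ratios the median was 14.96, with CALB2, read at 0 in all 3 IPATA libraries, at its bound of at least 93.4-fold higher (floor of 3 counts over the arm). Of the 7066 silent genes, which include the name families left out of the set, 48 reached a mean of 50 in COMBO, and 22 of these were members. Without those families, 20 genes that were not members reached it.

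**Figure D2:**
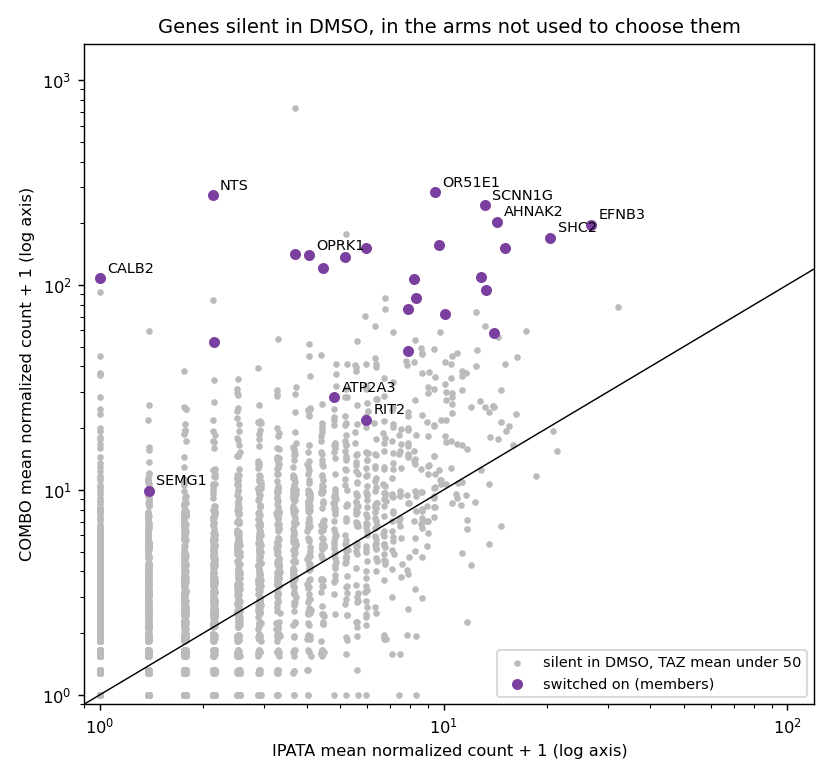
COMBO mean against IPATA mean, both as normalized count plus 1 on log axes, for silent protein-coding genes with the same name families left out; purple points are the 26 genes, gray points the silent genes with a TAZ mean under 50, and the line marks equal values. The 26 lie above the line, with SEMG1 (8.92 in COMBO) the lowest and OR51E1 (283) the highest.

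When the rule was applied to these other arms, with IPATA in place of DMSO and COMBO in place of TAZ, it took 21 genes. Of them 8 were members, which is 30.8% of the 26 and 38.1% of the 21. The lower bound kept out more members than the upper one, since 11 of the 26 had an IPATA mean under 5 and 22 had a COMBO mean of 50 or more.

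Ipatasertib alone left the set low. None of the 7066 silent protein-coding genes reached a mean of 50 in IPATA. Among the 26, 15 reached 5, 8 reached 10 and 1 reached 20. That gene was EFNB3, a transmembrane ephrin that binds EPH receptors, at 22.2, 26.2 and 29.4 in the IPATA libraries and 3.28, 3.58 and 2.37 in DMSO. SHC2, an adaptor for activated receptor tyrosine kinases, had 19.8, 12.5 and 25.97 in IPATA against 0, 1.20 and 1.58 in DMSO. In both genes the arms did not overlap. The next by IPATA mean were CIB2 (14.1), AHNAK2 (13.3), ATP12A (13.01), VSTM2A (12.3), SCNN1G (12.2) and RCAN2 (11.9). In 10 of the 26 all IPATA libraries were above all DMSO libraries and in 0 below, against 24.1% and 26.9% of the genes tested. The DMSO libraries chose the genes for low values, so nothing is read from that count, and no call of this comparison is used as support.

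With ipatasertib added to tazemetostat, some members ended higher and some lower. COMBO against TAZ gave 8 genes higher, 6 lower and 12 without a call by the edgeR quasi-likelihood test, where 21.1% of the genes tested were called higher and 25.7% lower. The members' shares of 30.8% higher and 23.1% lower are near those of all genes, so calls in both directions are not particular to the set. DESeq2 gave 8 higher and 5 lower, beside 15.0% and 20.4% of its genes. Higher in COMBO were SCNN1G, TSLP, EFNB3, TSPAN8, CIB2, SHC2, CLSTN2 and OPRK1, and lower were SEMG1, RIT2, NTS, LAMB3, ATP2A3 and NR4A2. The libraries did not overlap in 11 genes with COMBO above (24.5% of the genes tested) and in 7 with COMBO below (28.9%). The median fitted log2 difference of the 26 was 0.11, against -0.01 over the genes tested. The TAZ libraries also served to choose the genes, which favors high TAZ values and so lower calls in genes near the bound, and the p-values of this comparison are not independent of that choice. After the data were seen, the bound of 50 was therefore set on 1 TAZ library alone and COMBO compared with the other TAZ libraries only. With TAZ replicate A, B or C as the choosing library, this took 25, 26 or 27 genes, with 7, 8 or 8 higher in COMBO and 6, 5 or 5 lower. The 8 members called higher kept their call each time they were chosen, as did 5 of the 6 called lower (highest edgeR adjusted p = 0.0248, LAMB3), and ATP2A3 lost it (up to 0.142). These are the same fits as with that TAZ library left out. They reuse the COMBO libraries and the other TAZ libraries, so they are not separate support for the calls. Among the 8 genes with a TAZ mean of 100 or more, 0 were higher and 2 (NTS and NR4A2) were lower.

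**Figure D3:**
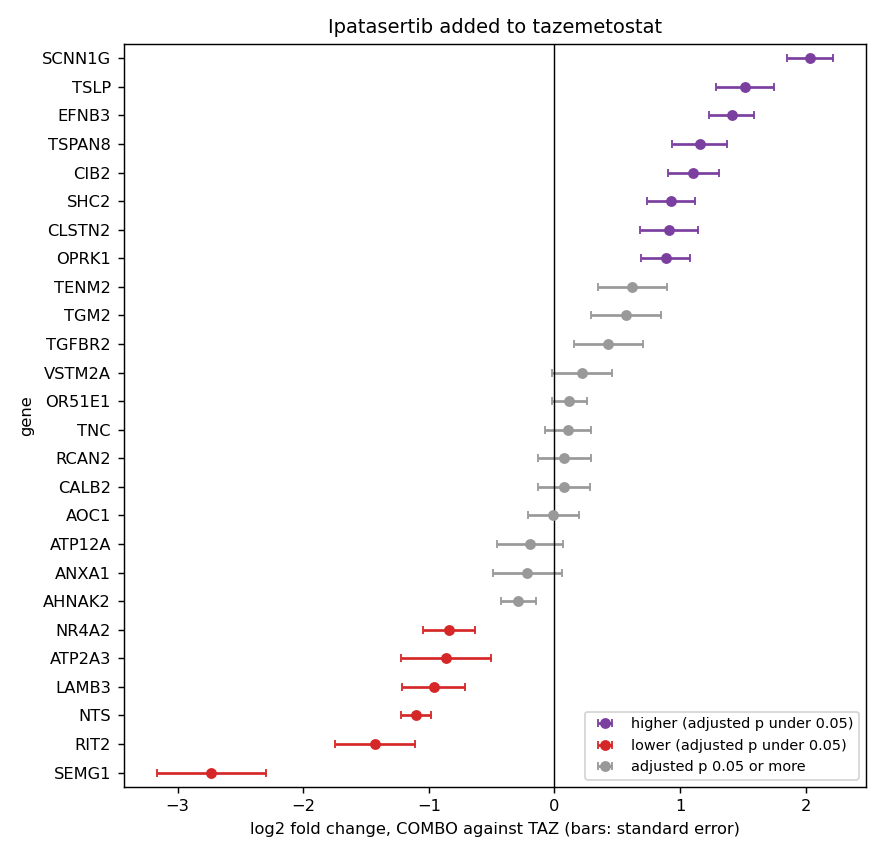
Fitted log2 fold change of COMBO against TAZ with its standard error (bars) for the 26 genes, in order of size; purple marks genes higher, red genes lower and gray genes with an adjusted p of 0.05 or more. SCNN1G is at 2.03 and SEMG1 at -2.73, with 12 gray points between -0.29 and 0.62.

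Of the secreted products, NTS and SEMG1 were lower and TSLP higher in COMBO than in TAZ. NTS, at chr12:85874295-85882992 (ENSG00000133636), encodes neurotensin, a neuropeptide of gut and brain. It had the highest TAZ level of the set, also per length (24.0 ± 1.53 RPKM, SD, n = 3). Its normalized counts were 620.5, 548 and 595.1 in TAZ, 278.1, 270.3 and 268.4 in COMBO, 0, 0 and 3.39 in IPATA and 1.09, 0 and 0 in DMSO. The COMBO libraries lay close together and below every TAZ library, and NTS fell by 1.10 ± 0.12 on the log2 scale (SE, edgeR adjusted p = 7.17e-10).
SEMG1, at chr20:45206997-45209772 (ENSG00000124233), encodes semenogelin 1, the main protein of the semen coagulum. It had 54.1, 59.7 and 64.0 normalized counts in TAZ but 4.10, 12.96 and 9.69 in COMBO, with at most 1.17 in any IPATA library and 3.95 in any DMSO library. COMBO kept 0.145 of the TAZ level (95% counting interval 0.0948 to 0.215), the lowest share of the set, with a fitted log2 difference of -2.73 ± 0.43 (SE, edgeR adjusted p = 1.87e-06). 
TSLP, an epithelial cytokine that acts on dendritic cells, went the other way with 57.4, 55.9 and 50.6 in TAZ and 178.0, 132.4 and 154.0 in COMBO. No libraries overlapped, and the log2 difference was 1.52 ± 0.23 (SE, edgeR adjusted p = 1.02e-06).

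Among receptors and adaptors, OR51E1 had overlapping levels in TAZ and COMBO. This olfactory G protein-coupled receptor (chr11:4643420-4655488, ENSG00000180785) is known from prostate tissue. It had 238.2, 277.8 and 270.3 normalized counts in TAZ and 306.8, 275.9 and 266.4 in COMBO, with a COMBO over TAZ ratio of 1.08 (95% counting interval 0.982 to 1.18) and a log2 difference of 0.12 ± 0.14 (SE, edgeR adjusted p = 0.511). In IPATA it had 11.7, 4.55 and 9.03, and in DMSO 1.09, 2.39 and 7.12.
OPRK1, the kappa opioid receptor, had no read in any DMSO library and 2.33, 3.42 and 3.39 normalized counts in IPATA. It stood at 78.0, 77.7 and 71.5 in TAZ and 128.8, 141.6 and 146.3 in COMBO. COMBO was higher by 0.89 ± 0.19 (log2, SE, edgeR adjusted p = 0.00026), and TAZ was at least 75.7-fold higher than DMSO.
SHC2 rose from 101, 73.0 and 94.6 in TAZ to 169.0, 190.7 and 147.3 in COMBO (log2 difference 0.93 ± 0.19, SE, edgeR adjusted p = 0.000128). RIT2, a neuronal RAS-family GTPase, fell from 59.6, 56.9 and 55.1 to 21.3, 22.2 and 19.4 (-1.43 ± 0.32, SE, edgeR adjusted p = 0.000294). Neither gene's arms overlapped. TGFBR2, the type 2 receptor of TGF-β, had means of 55.8 ± 8.58 in TAZ and 74.97 ± 6.46 in COMBO (SD, n = 3), and its difference did not pass the test (edgeR adjusted p = 0.205).

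Of the 7 adhesion and matrix genes, EFNB3, TSPAN8 and CLSTN2 were higher and LAMB3 lower in COMBO than in TAZ. EFNB3 rose from 68.2, 63.5 and 88.6 normalized counts in TAZ to 205.9, 184.2 and 196.7 in COMBO (log2 difference 1.41 ± 0.18, SE, edgeR adjusted p = 1.99e-08). The tetraspanin TSPAN8 rose from a mean of 60.8 ± 13.3 to 135.9 ± 12.4 (SD, n = 3, edgeR adjusted p = 3.32e-05), and the synaptic membrane protein CLSTN2 from 64.2 ± 2.72 to 119.8 ± 22.9 (edgeR adjusted p = 0.00112). LAMB3, a chain of the laminin of epithelial basement membranes, fell from 86.6, 82.5 and 104.3 to 51.7, 47.2 and 40.7 (-0.96 ± 0.25, SE, edgeR adjusted p = 0.00177). In each of these genes COMBO and TAZ libraries were apart.
The matrix glycoprotein tenascin C (TNC) was at 118.0, 131.8 and 143.0 in TAZ and 133.7, 137.9 and 151.1 in COMBO, so its ranges overlapped. Its difference did not pass the test (0.11 ± 0.18, SE, edgeR adjusted p = 0.658). Nor did those of the teneurin TENM2 (0.62 ± 0.28, adjusted p = 0.0638) and the immunoglobulin-domain protein VSTM2A (0.22 ± 0.24, adjusted p = 0.485). TENM2 did pass when libraries were scaled by library size (0.0451) or upper quartile (0.0424).

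SCNN1G had the highest COMBO over TAZ ratio of the set. It encodes the γ subunit of the epithelial sodium channel and lies at chr16:23182715-23216883 (ENSG00000166828). Its normalized counts were 53.1, 68.3 and 58.1 in TAZ and 241.2, 263.8 and 225.7 in COMBO, against 10.5, 15.9 and 10.2 in IPATA and 6.56, 1.20 and 3.95 in DMSO. The arms were far apart, with 4.07 times the TAZ level in COMBO (95% counting interval 3.48 to 4.77) and a log2 difference of 2.03 ± 0.18 (SE, edgeR adjusted p = 8.56e-12). SCNN1B, the β subunit gene 61348 bases away, was low in all arms, at means of 3.24 (DMSO), 1.89 (IPATA), 5.60 (TAZ) and 9.18 (COMBO).
The pumps were not higher in COMBO. ATP12A, the nongastric proton and potassium ATPase, had means of 66.0 ± 17.9 in TAZ and 57.5 ± 11.3 in COMBO (SD, n = 3, edgeR adjusted p = 0.568). ATP2A3, the calcium pump SERCA3, had 52.0, 45.5 and 54.4 in TAZ and 44.3, 24.99 and 12.6 in COMBO. COMBO libraries spread widely here, and the call (-0.86 ± 0.36, SE, edgeR adjusted p = 0.0471) was lost without COMBO replicate C (adjusted p = 0.249), without COMBO replicate B (0.116), without any of the TAZ libraries (0.0602 to 0.142) and with DESeq2 (0.134).

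Of the 4 calcium-dependent proteins 1 differed between COMBO and TAZ. CALB2 (chr16:71358713-71390438, ENSG00000172137) encodes calretinin, a neuronal calcium buffer, and was the only member unread in ipatasertib alone. It had no read in any IPATA library, 0, 0 and 0.791 normalized counts in DMSO, 125.6, 77.7 and 103.5 in TAZ and 106.7, 111.1 and 102.7 in COMBO. TAZ and COMBO overlapped (0.08 ± 0.21, SE, edgeR adjusted p = 0.799).
CIB2, a calcium and integrin binding protein needed in inner ear hair cells, rose from 61.7, 69.2 and 78.2 in TAZ to 157.5, 151.8 and 140.5 in COMBO (1.11 ± 0.20, SE, edgeR adjusted p = 1.77e-05). It overlaps IDH3A on the other strand, which had means of 955.6 (DMSO), 773.8 (IPATA), 782.6 (TAZ) and 508.3 (COMBO), thus in a different order, but the strand setting of the counting is not given in the sources used here. ANXA1, a phospholipid-binding annexin, had means of 59.9 ± 12.3 and 51.6 ± 6.56 in TAZ and COMBO, and RCAN2, a regulator of calcineurin, 103 ± 13.4 and 108 ± 2.07 (SD, n = 3), with adjusted p of 0.553 and 0.794 by edgeR.

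None of the scaffolds and enzymes passed the test between COMBO and TAZ, and the transcription factor fell. AHNAK2, a very large scaffold protein, had 252.3, 246.5 and 251 normalized counts in TAZ and 235.5, 183.3 and 189.9 in COMBO. Every COMBO library was lower, but the difference did not pass the test (-0.29 ± 0.14, SE, edgeR adjusted p = 0.0914). AOC1, the diamine oxidase that breaks down histamine, had 192.8, 107.1 and 159.4 in TAZ and 144.4, 175.9 and 131.8 in COMBO (edgeR adjusted p = 0.973).
The crosslinking enzyme TGM2 had means of 72.3 ± 4.19 and 106.4 ± 14.3 (SD, n = 3), with every COMBO library above every TAZ library and an edgeR adjusted p of 0.0948. It overlaps RPRD1B on the other strand, whose means were 823.4 to 844.7 in the 4 arms. NR4A2 (NURR1), an orphan nuclear receptor, fell from 141.9, 120.4 and 121.4 in TAZ to 73.0, 66.7 and 72.7 in COMBO (-0.84 ± 0.21, SE, edgeR adjusted p = 0.000878), and no libraries overlapped.

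Per length, most of the switched-on genes ranked near the middle of all 19907 protein-coding names by TAZ level. Of those names 7066 were under 5 in DMSO, so the percentiles do not place the set among expressed genes. NTS was at percentile 90.7 of protein-coding genes in TAZ by RPKM and OR51E1 (4.61 RPKM) at 64.7. The lowest was CLSTN2 with 0.279 RPKM, at percentile 38.7. In COMBO, NTS (11.6 RPKM) was at percentile 81.2. SCNN1G was at percentile 47.4 in TAZ and 64.1 in COMBO, and SEMG1 at 54.1 and 39.7. Across the 26 genes, the IPATA mean and the log2 ratio of COMBO to TAZ had a Spearman rho of 0.418, given as a description since all genes came from the same libraries. Of the 8 genes with an IPATA mean of 10 or more, 6 had a higher COMBO than TAZ mean, and of the other 18, 10 did.

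OR51E1 and SEMG1 each had a close relative nearby that was also read with tazemetostat. OR51E2, a receptor related to OR51E1 whose gene lies 24683 bases from it, was at 0 in every DMSO and IPATA library, at 43.3, 35.1 and 47.7 in TAZ and at 45.1, 42.6 and 20.3 in COMBO. SEMG2, 11528 bases from SEMG1, was also at 0 in all 6 libraries without tazemetostat and had 19.5, 33.2 and 29.0 in TAZ and 20.5, 22.2 and 14.5 in COMBO. Both were under the level of 50, and SEMG2, other than SEMG1, had overlapping TAZ and COMBO libraries. Genes already active near them were higher with tazemetostat as well. TRIM68, 35161 bases from OR51E1, had means of 409.8 ± 11.8 in IPATA and 1303 ± 41.3 in COMBO (SD, n = 3, edgeR adjusted p = 4.13e-20), and the protease inhibitor SLPI, 42467 bases from SEMG1, had 739.9 ± 16.8 and 2597 ± 13.1 (edgeR adjusted p = 1.19e-22). These neighbors were named after their values were seen. Related genes can share reads where their sequences match, and how such reads were assigned is not given in the sources used here. Within 100 kb of the 26 genes lay 76 other protein-coding genes, of which 38 could be tested. Of these, 17 (44.7%) were higher in COMBO than in IPATA and 12 lower, beside 32.1% each way over the genes tested. The 17 include OR51E2 and SEMG2, which passed the low-count filter only through the arms with tazemetostat. Their calls were therefore favored in advance, and nothing is read from the share.

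**Figure D4:**
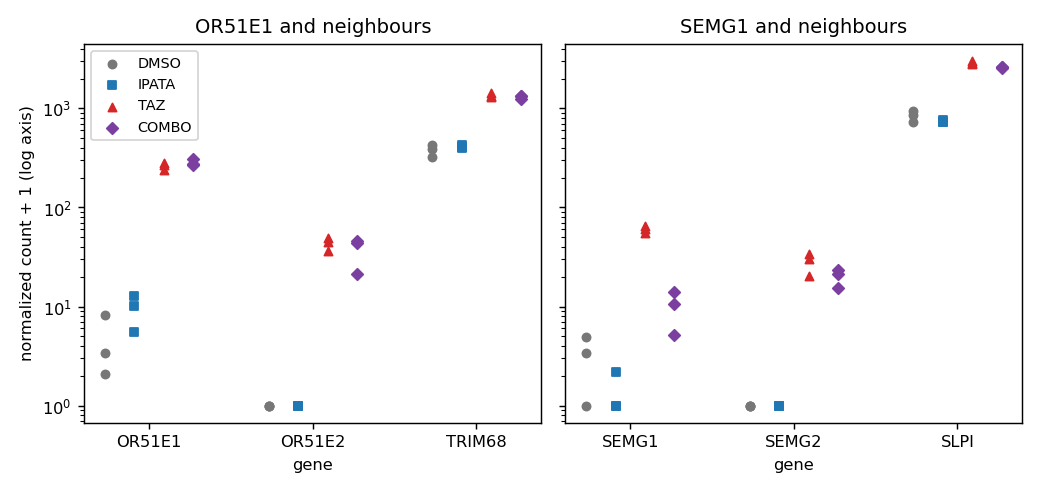
Normalized count plus 1 (log axis) in each library for OR51E1 and SEMG1 and for genes within 100 kb of them, with symbols for the 4 arms. TAZ and COMBO libraries are above DMSO and IPATA libraries for all 6 genes, with the SEMG1 COMBO libraries (4.10 to 12.96) only just above its highest DMSO library (3.95).

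Of 12 PRC2 subunit genes, 6 (EZH2, EED, SUZ12, RBBP4, RBBP7 and EPOP) were lower in COMBO than in both single-agent arms by the edgeR quasi-likelihood test and 2 (EZH1 and PHF1) were higher than in both. Of these core and accessory subunits, 3 were higher and 8 lower in COMBO than in IPATA (median log2 difference -0.36, against 0.04 over the genes tested, of which 32.1% were lower). In COMBO against TAZ, 2 were higher and 7 lower (median -0.31, against -0.01 over the genes tested, of which 25.7% were lower), and both comparisons share the COMBO libraries. EZH2 had means of 1237 ± 50.5 in DMSO, 672 ± 65.2 in IPATA, 571 ± 31.6 in TAZ and 366 ± 5.25 in COMBO (SD, n = 3). JARID2, an accessory subunit, was at 436.5, 567, 1209 and 1330 in the same order. Of the H3K27 demethylases KDM6A and KDM6B, 1 was higher and 1 lower in COMBO than in IPATA. BMF, a proapoptotic BCL-2 family gene that the study follows, was not a member. It stood at 98.4 ± 14.8 in DMSO (SD, n = 3), and its means were 156.1 in IPATA, 917 in TAZ and 1273 in COMBO, with COMBO above IPATA by 3.04 ± 0.11 (log2, SE, edgeR adjusted p = 3.54e-23).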

How the data were processed

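PolyA RNA from 12 C4.2B libraries was sequenced, and the authors aligned reads to hg38 with STAR, counted them per gene with HTSeq and normalized with DESeq2. Versions, annotation release and strandedness are not given in the sources used here, nor which of the study's sequencing sites made which library. The deposited values are raw counts for 58735 genes and, as signal, normalized counts for 57169 gene names, which match the raw counts after scaling by a single factor for each library. The count table also holds gene length, position and biotype, which belong to no sample. RPKM values were computed from the counts, the total counts of each library and those lengths.

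Members were chosen on the normalized values. Members, gene lists and roles were chosen with earlier results of these data known. Counts were tested in R 4.3.3 with edgeR 4.0.16 (filterByExpr with minimum count 10 and total 15, TMM, quasi-likelihood test, 1 mean per arm over all 12 libraries). P-values were adjusted by Benjamini-Hochberg over the 16646 genes that passed, at 0.05. Folds against an arm with no reads used a floor of 3 counts. Libraries of an arm differed by more than sampling noise (chi-square per gene 2.63 to 8.09), so each counted as 1 sample. On simulated counts for COMBO against IPATA, 172 of 200 genes changed 2-fold were recovered, with 17 false calls among 16118 genes. The false calls were thus a larger share of all calls than the threshold of 0.05.

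Named genes were the members with the highest TAZ and IPATA means, the largest called differences, genes next to either bound, list genes and BMF. Other members were added so that all 26 are accounted for. Alternatives were DESeq2 1.42.0, library size or upper quartile scaling, a filter of 1 count in total, only the 6 libraries compared, a replicate block, each library left out, other bounds of the rule and, added after seeing the data, a TAZ bound on 1 TAZ library with the test on the others. Tables and plots used Python 3.11.15 with pandas 2.3.3, numpy 2.4.6, scipy 1.17.1 and matplotlib 3.10.9.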

Additional observations from a re-analysis of the deposited data

Results flagged for a closer look

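AHNAK2 and NR4A2 drew attention because every IPATA library was above every DMSO library while every COMBO library was below every TAZ library. NR4A2 did not pass the test in IPATA against DMSO (edgeR adjusted p = 0.098), nor did AHNAK2 in COMBO against TAZ (0.0914). The genes were chosen for low DMSO and high TAZ values, which favors this pattern. AHNAK2 had 8.16, 12.5 and 19.2 normalized counts in IPATA against 2.19, 1.20 and 1.58 in DMSO, while its COMBO mean of 203 was made of libraries that all lay below the TAZ mean of 250 ± 3.06 (SD, n = 3). NR4A2 had 6.997, 6.83 and 13.6 in IPATA against 2.19, 4.78 and 6.33 in DMSO, and a COMBO mean of 70.8 against 127.9 in TAZ. The difference between the effects was not tested.

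Outside the protein-coding genes, 4 genes of other biotypes met both levels of the rule, among 33272 that were under 5 in DMSO. The lincRNA AP002884.1 had means of 3.15 (DMSO), 4.58 (IPATA), 97.6 (TAZ) and 93.4 (COMBO), and the lincRNA LINC00578 2.28, 5.31, 67.9 and 54.4. The lincRNA AC104667.1 differed in having 43.1, 34.1 and 39.5 in the IPATA libraries, close to its TAZ mean of 50.5, with 4.38 in DMSO and 76.7 in COMBO. The antisense gene AC025164.1 had means of 4.67, 13.7, 81.7 and 257.8, and without the strand setting its reads cannot be told apart from those of a gene on the other strand. Groups of 3 libraries are too small for a check of single outlying libraries.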

How the results depend on the processing

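The call of all 26 genes higher in COMBO than in IPATA held with DESeq2, every scaling, the lower filter, the replicate block and each library left out (26 each time). With only the 6 libraries compared, 25 passed the filter and 25 were higher. Members with few IPATA counts passed that filter by their COMBO level, which favors a higher call, so this setting is no separate support. In COMBO against TAZ, 8 higher and 6 lower remained the counts under the replicate block. Same-lettered libraries did not deviate together (18 pairs, correlations -0.171 to 0.233, 4 over 0.1), so the letters were not taken to pair libraries. Library size and upper quartile scaling gave 9 and 5, the 6 libraries alone 10 and 6, and each library left out 8 to 10 higher and 5 to 7 lower. ATP2A3 also lost its call with library size (adjusted p = 0.0596) and upper quartile scaling (0.0669). TENM2 gained one with library size (0.0451), upper quartile (0.0424), the 6 libraries (0.0164) and without COMBO replicate A (0.0324) or any IPATA library (0.0487 to 0.0497). TGM2 gained one with the 6 libraries (0.00815) and without IPATA replicate C (0.0382), and AHNAK2 without COMBO replicate A (0.0398). Log2 differences near 0 changed sign for AOC1 (0.042 by library size, 0.055 by upper quartile, 0.013 with 6 libraries, and -0.21 to 0.15 over left-out libraries), RCAN2 (-0.0023 to 0.18), CALB2 (-0.090 to 0.21) and ATP12A (-0.37 to 0.057). The cause was not tested. Setting the TAZ bound on 1 TAZ library and testing on the others, chosen after seeing the data, gave 7 or 8 higher and 5 or 6 lower. A TAZ bound of 100 left 8 genes (0 higher and 2 lower in COMBO than in TAZ), and a DMSO bound of 2 left 10. Leaving out DMSO or TAZ libraries gave 25 to 28. Scaling by library size moved the median of all genes in COMBO against IPATA from 0.04 to 0.17 and the calls from 5344 higher and 5343 lower to 6544 and 4330 (60.2% higher). A member's DMSO mean rests on at most 14 reads over the arm, so folds against DMSO are imprecise.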

Other observations

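Ipatasertib together with tazemetostat also brought up silent genes that tazemetostat alone left under the level of 50. With the same name families left out, 20 protein-coding genes had means under 5 in DMSO and under 50 in TAZ but of 50 or more in COMBO. They were chosen by their COMBO values, so no test is given. SHISA2, an inhibitor of WNT and FGF receptor maturation, had the highest level, with means of 1.69 (DMSO), 2.69 (IPATA), 40.4 (TAZ) and 729.7 (COMBO). CAMK1D, a calmodulin-dependent kinase, followed with 4.51, 4.21, 35.8 and 177. F3, tissue factor and the start of blood coagulation, had no read in DMSO or IPATA and 14.7 in TAZ and 91.4 in COMBO. SATB1, a chromatin organizer, had 0.264, 0.389, 16.9 and 58.3, and ANGPT2, an angiopoietin, 3.71, 5.77, 34.2 and 85.1. All 20 had a TAZ mean above their DMSO mean, the lowest TAZ mean being 10.7 (MB21D2).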
